A study of Mus musculus with 21 samples.

Results

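In mouse 3T3-L1 adipocytes, 10 genes for secreted acute phase proteins were followed: Lcn2, Saa3, Hp, Hpx, Orm1, Orm2, Orm3, Itih4, Serpina3n and Cp. The members were the genes whose symbol in the platform annotation was 1 of these 10, and where a gene had several probe sets, the probe set with the highest mean over the 21 arrays stood for it. All 10 were among the 12156 genes tested, out of 18194 genes with a probe set of their own. Cp had 8 probe sets and each of the other genes 1. Measurements came from Affymetrix mouse expression arrays hybridised with biotin-labelled cRNA, 3 arrays in each of 7 groups, and the labels call the 3 arrays of a group biological replicates.

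All groups were 3T3-L1 cells, an established mouse fibroblast line that turns into fat cells in culture, differentiated for 14 days. The control group carried no treatment and was labelled 0 h. The Dex groups received dexamethasone, a synthetic glucocorticoid, at 20 nM for 2 h, 24 h or 6 d before the RNA was taken. The TNF groups received tumour necrosis factor alpha, an inflammatory cytokine, for the same 3 times. The labels name neither the TNF dose, a vehicle nor a control kept for each treatment time, so all treated groups share the control at 0 h. The study followed both agents through the development of insulin resistance, and the question here is which of these secreted proteins each agent raised and when. A single line in culture limits the model, and p-values measure the spread between these cultures.

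Acute phase proteins are plasma proteins whose output changes in inflammation and injury. The liver is their main source, and fat cells also make several of them. In hepatocytes their genes are known to answer to cytokines such as interleukin 6, which acts through STAT3 and C/EBP factors, to interleukin 1 and TNF, which act through NF-kB, and to glucocorticoids, which act through the glucocorticoid receptor and often add to the effect of the cytokines.

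Values are log2 RMA levels, on which a difference of 1 is a doubling, and levels of different probe sets cannot be set against each other. The median of all values, 5.34, served as the threshold for a measurable level. Each change below is a difference of group means with its standard error (SE) from limma, called when its adjusted p was below 0.05. In RNA from whole cultures, fewer cells that carry a transcript and less transcript per cell cannot be told apart. One array stood apart: TNF 6 d replicate 2 had a standard deviation over probe sets of 2.04 against 2.44 to 2.51 on the other 20 arrays. Its 3' to 5' difference of control probe sets was 2.00 against 0.0210 to 0.777 elsewhere. Its lowest correlation within its group was 0.842, where the other groups lay at 0.978 to 0.995. The 3' to 5' difference was uneven over the other arrays. At 6 d of Dex it was 0.777 on replicate 2. Under TNF it was 0.736 on replicate 2 at 2 h, and 0.683 on replicate 3 at 24 h. The next value was 0.283, on control replicate 3. TNF 6 d replicate 2 widened the spread that all groups share. The counts of members, and values that this array moves across the threshold or by much, are also given from the fit without it.

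The cultures carried the markers of fat cells. Of 10 adipocyte markers measured, 9 lay above the threshold in every group, among them Adipoq at group means of 14.5 to 14.9, while Lep lay below it. The mean of the adipocyte list was 12.46 to 12.49 on the control arrays, 11.2 to 11.8 under TNF at both 24 h and 6 d, and 12.2 to 12.5 under Dex at these times. Of 11 preadipocyte or fibroblast markers 10 were above the threshold. The list mean was 10.9 to 11.2 in controls and 9.88 to 10.2 under Dex at 6 d. Under TNF it was 10.96 to 11.09 at 24 h and 11.03 to 11.6 at 6 d. Of the 10 tested, Dex at 6 d lowered 7 and raised 0, though Pdgfra and Vim had higher means than in controls. TNF raised 2 and lowered 0 at both 24 h and 6 d. Without TNF 6 d replicate 2, TNF raised 2 and lowered 2 at 24 h, and raised 5 and lowered 0 at 6 d. Macrophage markers above the threshold numbered 2 or 3 of 12, and Ptprc, Adgre1 and Itgam lay below it in every group. The group mean of Cd14 was 6.60 in controls and 8.37 at both 24 h and 6 d of TNF, that of Csf1r 6.45, 6.96 and 6.78, and that of Cd68 5.21, 6.78 and 4.99. Hepatocyte markers numbered 1 or 2 of 8, with Alb below the threshold in every group. Cyp2e1, however, had a group mean of 6.69 in controls, 7.68, 10.75 and 11.86 under Dex and 6.78, 4.72 and 5.78 under TNF. The part of these marker shifts in the changes below was not tested.

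RefSeq promoter windows (GRCm38.p6) were listed for 8 of the 10 genes, with 2 windows for Cp, and Hp and Orm1 are named only. Each window is the 250 bases before a listed transcription start, given 5' to 3' on the gene's strand. Motifs were searched on both strands. C/EBP was TTGCNNAA, where N is any base. STAT was TTCNNNGAA, or the same ends with 1 more N between them. NF-kB was GGG followed, after any 2 bases, by TTTCC or TTCCC. The glucocorticoid receptor motif was AGAACA followed, after any 3 bases, by TGTTCT, and its first 6 letters, AGAACA, were also searched alone. The windows below are shown because the data turn on these genes: Lcn2 rose under both agents, Saa3 and Hpx rose mainly under TNF, Orm2 and Orm3 are neighbours that parted under Dex, and Serpina3n holds the only NF-kB match. Capitals mark the matches. For Saa3 the listed start lies 3939 bases inside the gene's outer boundary, for Orm3 89 and for Serpina3n 62, while for Lcn2, Hpx and Orm2 it is the boundary itself. The windows are chr2:32387740-32387989 (minus strand) for Lcn2, chr7:46715677-46715926 (minus) for Saa3, chr7:105600117-105600366 (minus) for Hpx, chr4:63362199-63362448 (plus) for Orm2, chr4:63355908-63356157 (plus) for Orm3 and chr12:104406458-104406707 (plus) for Serpina3n.
Lcn2: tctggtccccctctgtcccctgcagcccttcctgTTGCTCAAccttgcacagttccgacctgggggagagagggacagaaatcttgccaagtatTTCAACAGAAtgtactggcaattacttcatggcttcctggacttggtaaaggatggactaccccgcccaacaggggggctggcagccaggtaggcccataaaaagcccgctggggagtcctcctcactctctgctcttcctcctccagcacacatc
Saa3: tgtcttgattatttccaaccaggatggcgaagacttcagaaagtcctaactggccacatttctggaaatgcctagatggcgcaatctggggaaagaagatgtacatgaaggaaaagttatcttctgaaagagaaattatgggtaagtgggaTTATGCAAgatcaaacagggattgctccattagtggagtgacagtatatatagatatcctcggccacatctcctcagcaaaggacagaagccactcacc
Hpx: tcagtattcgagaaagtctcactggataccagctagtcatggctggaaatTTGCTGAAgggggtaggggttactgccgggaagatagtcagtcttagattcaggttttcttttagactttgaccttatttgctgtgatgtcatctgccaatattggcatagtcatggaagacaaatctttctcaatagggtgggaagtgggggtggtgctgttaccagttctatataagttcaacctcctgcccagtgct
Orm2: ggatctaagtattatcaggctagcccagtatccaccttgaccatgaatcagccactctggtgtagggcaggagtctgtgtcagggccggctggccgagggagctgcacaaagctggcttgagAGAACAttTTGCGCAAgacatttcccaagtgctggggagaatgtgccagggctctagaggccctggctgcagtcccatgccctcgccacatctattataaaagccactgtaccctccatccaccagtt
Orm3: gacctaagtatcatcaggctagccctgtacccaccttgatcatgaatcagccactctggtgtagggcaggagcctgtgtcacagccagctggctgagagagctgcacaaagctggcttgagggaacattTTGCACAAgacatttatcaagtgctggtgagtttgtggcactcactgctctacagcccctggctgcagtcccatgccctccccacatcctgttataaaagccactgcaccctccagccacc
Serpina3n: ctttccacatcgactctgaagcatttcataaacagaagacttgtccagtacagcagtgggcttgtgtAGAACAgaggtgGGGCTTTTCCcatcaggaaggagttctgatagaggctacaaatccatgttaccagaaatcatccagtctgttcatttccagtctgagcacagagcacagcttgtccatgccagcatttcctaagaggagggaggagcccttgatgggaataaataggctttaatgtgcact

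C/EBP letters stood in windows of 6 of the 8 genes (Lcn2, Saa3, Hpx, Orm2, Orm3 and Cp), against 9.56% of 32851 promoters of the same length. In Lcn2 the match covered positions -216 to -209 before the start, in Saa3 -99 to -92 on the other strand, and in Hpx -200 to -193. Orm2 matched at -120 to -113 on both strands and Orm3 at -121 to -114 on 1 strand. STAT letters were found in Lcn2 (-156 to -147) and Itih4 (-51 to -43), against 12.4% of promoters. NF-kB letters were found in Serpina3n (-171 to -162), against 2.82%. The AGAACA letters were found in 3 genes (Orm2, Serpina3n and Cp), against 16.1%, and the long glucocorticoid receptor motif in none, against 0.00913%. Aligned end to end, the Orm2 and Orm3 windows were 85.9% identical, with 219 identical bases, 26 mismatches and 10 gap columns out of 255. Of the 2 windows, Orm2's AGAACA at -128 to -123 has no match at the like place in Orm3. These matches describe letters and say nothing of binding.

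Against control, Dex raised 3 of the 10 genes at 2 h (Hp, Orm3 and Serpina3n), where 1.66% of all genes were called higher. At 24 h it raised 5 (Lcn2, Saa3, Hp, Orm3 and Cp) against 2.06%, and at 6 d it raised 3 (Hp, Itih4 and Cp) against 3.22%. The median change of the 10 genes was 0.61, 1.06 and 0.94 at the 3 times, beside -0.02, -0.00 and -0.02 over all genes. Without TNF 6 d replicate 2 the counts were 6 at 2 h (background 4.29%), 6 at 24 h (6.39%) and 6 at 6 d (10.4%), and Orm1 and Orm2 were called lower at 6 d (13.5%).

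TNF raised 4 genes at 2 h (Saa3, Hp, Hpx and Cp), where 2.95% of all genes were called higher. At 24 h it raised 6 (Lcn2, Saa3, Hp, Hpx, Serpina3n and Cp) against 5.41%, and at 6 d it raised 6 (Saa3, Hp, Hpx, Itih4, Serpina3n and Cp) against 4.52%. Orm1 and Orm2 were called lower at 6 d, where 10.7% of all genes were. The median change of the 10 genes was 0.73, 2.05 and 1.91 at the 3 times, beside -0.05, -0.03 and -0.23 over all genes. With each array centred on its median, the all-gene value at 6 d was 0.08. Without the array that stood apart the counts were 5 at 2 h (6.59%), 7 at 24 h (13.2%) and 7 at 6 d (10.5%), with the same 2 genes lower at 6 d (9.93%).

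Over the 3 times, 6 genes were raised at least once by each agent: Lcn2, Saa3, Hp, Itih4, Serpina3n and Cp. Itih4 was called at 6 d alone, a time for which the labels name no control of its own. Hpx was raised by TNF and not called under Dex, Orm3 by Dex and not called under TNF, and Orm1 and Orm2 were raised by neither. Hp and Cp were the members called higher in the most comparisons, Hp in all 6 and Cp in 5. Of 33 fits in all, counting the other settings and each array left out, Lcn2, Hp and Cp came out as raised by both agents in 33, Hpx by TNF in 33 and Orm3 by Dex in 33. Saa3 came out as raised by both in 29 and by TNF alone in 4, Serpina3n by both in 32 and by TNF alone in 1, and Itih4 by both in 32 and by Dex alone in 1. Orm2 came out as raised by both in 3 fits and Orm1 by Dex in 4, among them in each case the fit without TNF 6 d replicate 2.

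**Figure D1:**
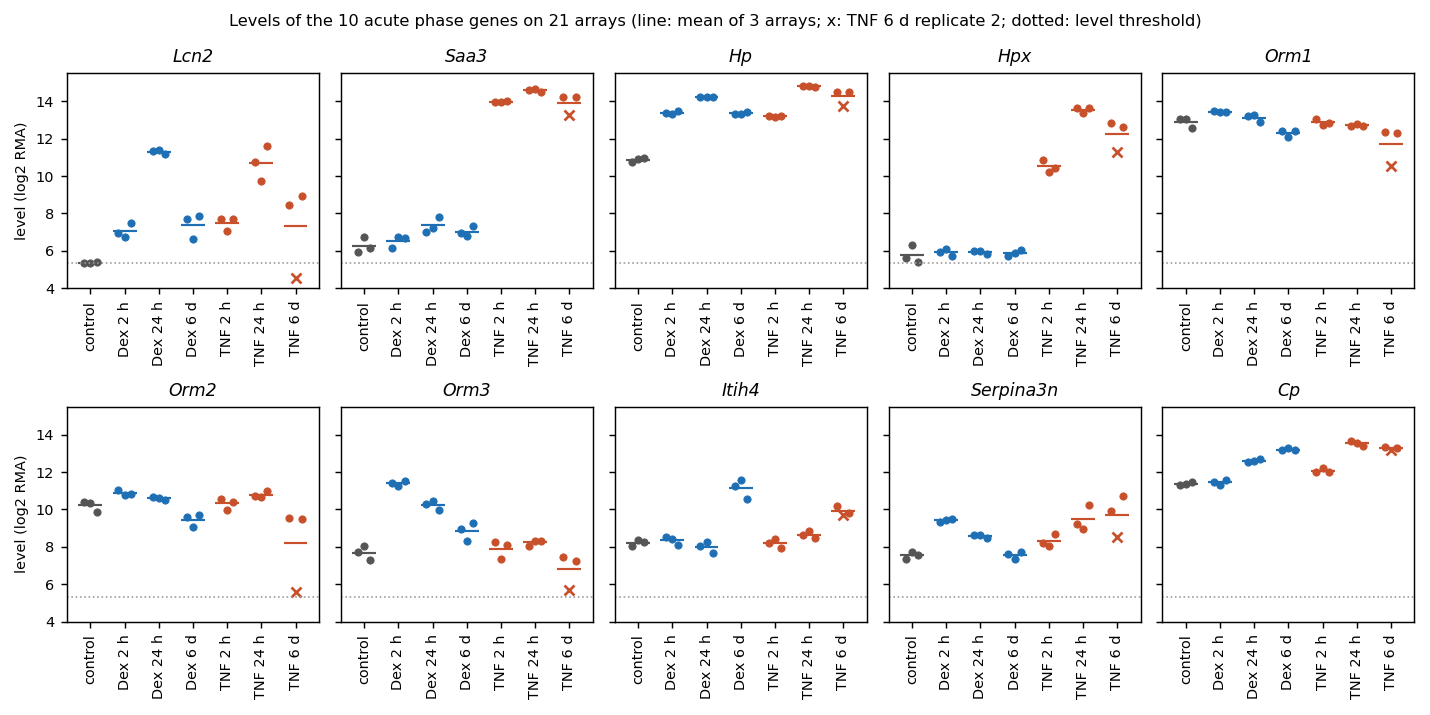
Level of each of the 10 genes (log2 RMA, vertical axis) on the 21 arrays by group (horizontal axis), with a point per array, a line at the mean of 3 arrays, a cross for TNF 6 d replicate 2 and a dotted line at the threshold of 5.34. Saa3 and Hpx stand high in the TNF groups alone, Orm3 in the Dex groups, and Lcn2 peaks at 24 h under both agents.

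**Figure D2:**
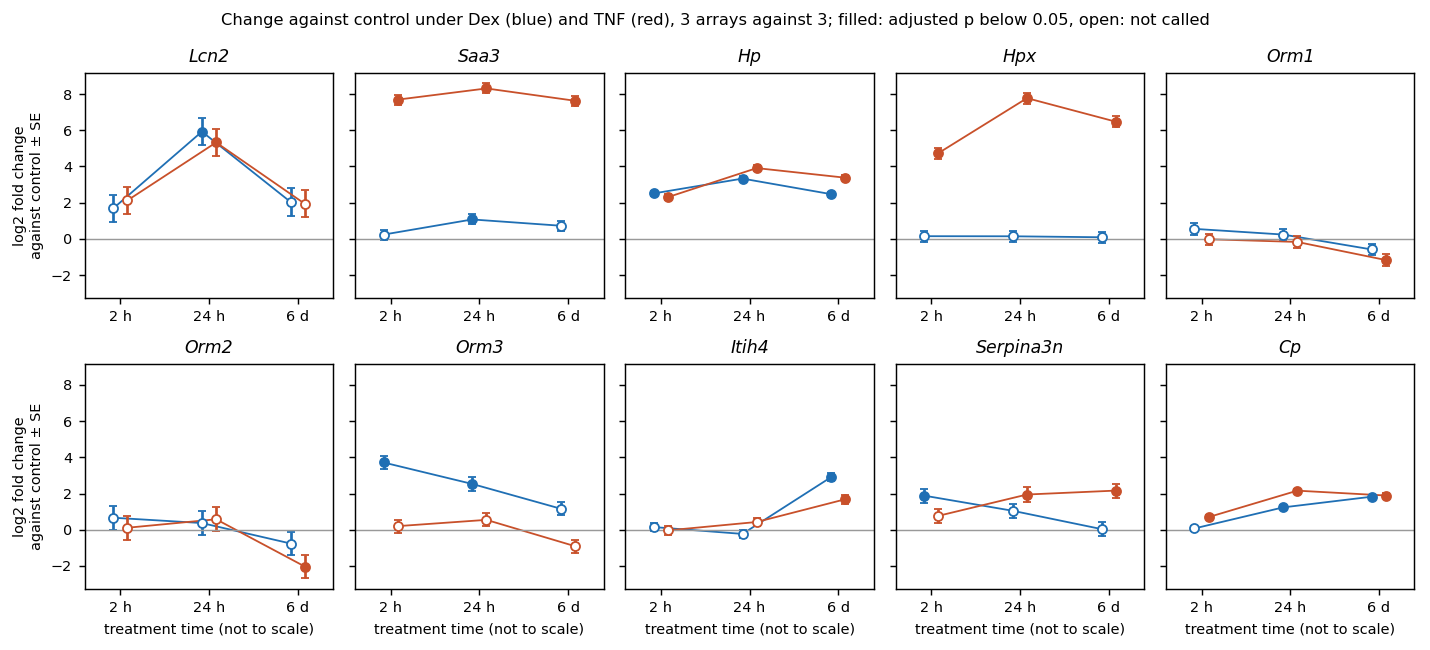
Change against control (log2 fold change ± SE, vertical axis; 3 arrays against 3) at 2 h, 24 h and 6 d (horizontal axis, not to scale) under Dex (blue) and TNF (red), with filled points for changes called at an adjusted p below 0.05 in limma and open points for the rest. Hp rises under both agents at all 3 times, whereas Itih4 rises at 6 d.

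Lcn2 encodes lipocalin 2, a secreted carrier that binds the iron-loaded siderophores of bacteria. Its level was lowest in controls, peaked at 24 h under both agents and was between these levels at 2 h and 6 d. The control arrays read 5.35, 5.33 and 5.41, close to the threshold. Under Dex the arrays read 6.94, 6.73 and 7.47 at 2 h, 11.32, 11.38 and 11.17 at 24 h, and 7.72, 6.62 and 7.87 at 6 d. Under TNF they read 7.72, 7.05 and 7.70 at 2 h, 10.73, 9.72 and 11.63 at 24 h, and 8.43, 4.57 and 8.91 at 6 d, where 4.57 is the array that stood apart. Apart from that array, every treated array lay above every control array. The Dex 24 h arrays lay close to each other and inside the wider range of the TNF 24 h arrays.

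At 24 h Lcn2 rose by 5.92 ± 0.75 under Dex (60.8-fold, adjusted p = 5.37e-05) and by 5.33 ± 0.75 under TNF (40.1-fold, adjusted p = 6.68e-05). The 2 agents did not differ at 24 h beyond the spread: Dex minus TNF was 0.60 ± 0.75 (95% interval -0.97 to 2.17, adjusted p = 0.753). At 2 h the changes were 1.68 under Dex (adjusted p = 0.544) and 2.13 under TNF (adjusted p = 0.181), and at 6 d 2.04 (adjusted p = 0.118) and 1.94 (adjusted p = 0.0818). Leaving out TNF 6 d replicate 2 lowered the SE to 0.35, and all 6 changes were then called. Without it the 2 h changes had adjusted p of 0.0034 and 0.000213, the Dex change at 6 d 0.000197, and the TNF change at 6 d was 3.31 ± 0.40 (9.89-fold, adjusted p = 4.05e-06). The same step turned the difference between the agents at 6 d from 0.10 (adjusted p = 0.929) to -1.27 ± 0.40 (adjusted p = 0.0192), with Dex lower.

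In time, Lcn2 rose by 4.24 ± 0.75 from 2 h to 24 h of Dex (adjusted p = 0.00198) and fell by 3.89 from 24 h to 6 d (adjusted p = 0.0168). Under TNF it rose by 3.20 (adjusted p = 0.0126) and then fell by 3.39 (adjusted p = 0.0109), or by 2.02 without TNF 6 d replicate 2 (adjusted p = 0.00193). Some of these calls needed all arrays. The Dex fall was not called without any of Dex 24 h replicates 1, 2 and 3 or Dex 6 d replicates 1 and 2, at adjusted p of 0.0605 to 0.124. The TNF rise was not called without TNF 2 h replicate 2 (0.0633) or TNF 24 h replicate 3 (0.0872), and the TNF fall was not called without TNF 24 h replicate 3 (0.0688).

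Saa3 encodes serum amyloid A3, the member of that lipoprotein-bound family that mice make chiefly outside the liver. It was raised by TNF within 2 h and stayed high for 6 d, while its changes under Dex were small. Controls read 5.94, 6.74 and 6.15. TNF arrays read 13.97, 13.94 and 13.99 at 2 h, 14.61, 14.67 and 14.48 at 24 h, and 14.24, 13.27 and 14.20 at 6 d. Every TNF array was thus more than 6 units above every control array, the array that stood apart included. Dex arrays read 6.13, 6.72 and 6.70 at 2 h, 7.01, 7.21 and 7.83 at 24 h, and 6.93, 6.79 and 7.30 at 6 d. The Dex 2 h range overlapped the control range, and the later Dex ranges lay just above it.

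Under TNF Saa3 rose by 7.69 ± 0.28 at 2 h (207-fold, adjusted p = 1.91e-12), 8.31 at 24 h (317-fold, adjusted p = 6.87e-13) and 7.63 at 6 d (198-fold, adjusted p = 4.42e-12; 7.95 and 247-fold without TNF 6 d replicate 2). Under Dex the change was 0.24 at 2 h (adjusted p = 1), 1.07 ± 0.28 at 24 h (2.11-fold, adjusted p = 0.031) and 0.73 at 6 d (adjusted p = 0.137; 0.0139 without TNF 6 d replicate 2). The 24 h call under Dex was not made when control replicate 1 (adjusted p = 0.178), control replicate 3 (0.122), Dex 24 h replicate 2 (0.0723) or Dex 24 h replicate 3 (0.203) was left out. Dex minus TNF was -7.45, -7.23 and -6.90 at the 3 times, with adjusted p of at most 5.8e-12. Between TNF times the changes of 0.62 and -0.68 were not called (adjusted p = 0.271 and 0.13). Without TNF 6 d replicate 2 the first was called (0.038), and the second was -0.36 and not called (0.403). From 2 h to 24 h of Dex the change was 0.84, which was called only without that array (adjusted p = 0.133 with it and 0.00872 without).

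Hp encodes haptoglobin, which binds free haemoglobin, and Hpx encodes haemopexin, which binds free haem. These scavengers answered differently: Hp was raised by both agents at every time, and Hpx by TNF.

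Hp read 10.77, 10.91 and 10.97 in controls. Under Dex it read 13.39, 13.30 and 13.50 at 2 h, 14.21, 14.21 and 14.22 at 24 h, and 13.31, 13.34 and 13.41 at 6 d. Under TNF it read 13.20, 13.15 and 13.22 at 2 h, 14.83, 14.80 and 14.75 at 24 h, and 14.52, 13.75 and 14.52 at 6 d. All 18 treated arrays were above all control arrays, and in both courses the 24 h group was the highest. Under Dex Hp rose by 2.51 ± 0.15 (5.71-fold, adjusted p = 9.33e-09), 3.33 (10.1-fold, adjusted p = 1.47e-10) and 2.47 (5.54-fold, adjusted p = 2.08e-09) at 2 h, 24 h and 6 d. Under TNF it rose by 2.31 (4.95-fold, adjusted p = 6.03e-09), 3.91 (15.0-fold, adjusted p = 2.99e-12) and 3.38 (10.4-fold, adjusted p = 3.82e-11; 3.64 and 12.4-fold without TNF 6 d replicate 2).

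The agents parted over time. Dex minus TNF for Hp was 0.20 at 2 h (95% interval -0.10 to 0.51, adjusted p = 0.807; 0.0365 without TNF 6 d replicate 2), -0.58 at 24 h (adjusted p = 0.0111) and -0.91 at 6 d (adjusted p = 0.000244; -1.17 without that array). The change of this difference between 2 h and 24 h was -0.78 ± 0.21 (adjusted p = 0.0363; 3.27e-06 without TNF 6 d replicate 2), a call not made without any 1 of the 12 arrays of the groups involved (0.056 to 0.102). From 2 h to 24 h Hp rose by 0.82 under Dex (adjusted p = 0.00254) and by 1.60 under TNF (adjusted p = 1.01e-06). From 24 h to 6 d it fell by 0.86 under Dex (adjusted p = 0.00597). Under TNF it fell by 0.53 (adjusted p = 0.0396), or by 0.27 ± 0.07 without TNF 6 d replicate 2 (adjusted p = 0.02). This last call was lost in 20 of the other settings, at adjusted p from 0.051 upward; leaving out TNF 24 h replicate 1, 2 or 3 gave 0.107, 0.0953 and 0.0916. The Hp change itself was smaller with median centring (-0.16, adjusted p = 0.249) and with cyclic loess (-0.21, adjusted p = 0.137).

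Hpx read 5.62, 6.32 and 5.40 in controls, close to the threshold. Dex arrays lay between 5.72 and 6.11 at 2 h, 5.84 and 5.97 at 24 h, and 5.74 and 6.02 at 6 d, inside the control range at every time. TNF arrays read 10.87, 10.24 and 10.44 at 2 h, 13.66, 13.38 and 13.62 at 24 h, and 12.82, 11.30 and 12.64 at 6 d. No TNF array came within 3 units of a control or Dex array, and the 3 TNF groups did not overlap. TNF raised Hpx by 4.73 ± 0.31 at 2 h (26.6-fold, adjusted p = 7.13e-09), 7.77 at 24 h (219-fold, adjusted p = 5.3e-12) and 6.47 at 6 d (88.9-fold, adjusted p = 1.28e-10; 6.95 without TNF 6 d replicate 2). The Dex changes were 0.15, 0.15 and 0.09, with 95% intervals from -0.50 to 0.80 at 2 h, -0.50 to 0.79 at 24 h and -0.55 to 0.74 at 6 d.

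Hpx rose by a further 3.04 from 2 h to 24 h of TNF (adjusted p = 2.68e-06) and then fell by 1.30 (adjusted p = 0.0175), or by 0.82 without TNF 6 d replicate 2 (adjusted p = 0.0169). The fall was not called without TNF 24 h replicate 1 (0.0636) or replicate 3 (0.0622). Saa3, by comparison, gained 0.62 over the same first interval. Its group mean was already 13.97 at 2 h of TNF, where the highest value on any array was 15.06. Its room to rise on the array was thus smaller than that of Hpx, and whether this limited its gain was not tested. Dex minus TNF was -4.58, -7.63 and -6.38 at the 3 times (adjusted p of at most 7.85e-09; -6.86 at 6 d without TNF 6 d replicate 2), and it changed by -3.04 ± 0.44 between 2 h and 24 h (adjusted p = 0.000205).

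Orm1, Orm2 and Orm3 encode orosomucoids, the alpha-1-acid glycoproteins that carry basic drugs and lipophilic compounds in plasma. The 3 genes lie next to each other on mouse chromosome 4, in the order Orm1, Orm3, Orm2. Their transcripts are alike, so probe sets may share signal between them, and values of single genes are uncertain to that extent. Orm3 was raised by Dex, with the highest level at 2 h. Against control, Orm1 and Orm2 moved by less than 1 on the log2 scale under Dex. From 24 h to 6 d of Dex, however, Orm1 changed by -0.82 and Orm2 by -1.13. Neither fall was called with all arrays, and both were called without TNF 6 d replicate 2 (adjusted p = 0.000271 and 0.000339).

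Orm3 read 7.75, 8.03 and 7.31 in controls. Dex arrays read 11.44, 11.27 and 11.53 at 2 h, 10.30, 10.43 and 9.95 at 24 h, and 8.98, 8.33 and 9.26 at 6 d. All 9 Dex arrays were above all controls, and the 3 Dex groups did not overlap. TNF arrays read 8.23, 7.34 and 8.12 at 2 h, 8.07, 8.33 and 8.33 at 24 h, and 7.47, 5.68 and 7.22 at 6 d. The TNF ranges overlapped the control range at 2 h and 6 d and lay just above it at 24 h. Dex raised Orm3 by 3.72 ± 0.37 at 2 h (13.1-fold, adjusted p = 3.11e-06) and by 2.53 at 24 h (5.78-fold, adjusted p = 0.000226). At 6 d its change was 1.16 (2.23-fold, adjusted p = 0.0601; 0.000899 without TNF 6 d replicate 2). The TNF changes were 0.20, 0.55 and -0.91 (adjusted p = 1, 0.499 and 0.0928), the last being -0.35 without that array.

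Dex stood above TNF for Orm3 by 3.52 at 2 h (11.4-fold, adjusted p = 1.9e-06), 1.98 at 24 h (3.95-fold, adjusted p = 0.000807) and 2.07 at 6 d (4.19-fold, adjusted p = 0.000538; 1.51 without TNF 6 d replicate 2). Between Dex times the changes of -1.19 and -1.37 were not called (adjusted p = 0.0943 and 0.136) and were called without that array (0.00128 and 0.00112). Under TNF Orm3 fell by 1.46 from 24 h to 6 d (adjusted p = 0.0248; 0.90 ± 0.26 without that array). That call was not made without TNF 24 h replicate 1 (0.054), replicate 2 (0.0702) or replicate 3 (0.0854).

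Orm1 read 13.04, 13.04 and 12.58 in controls and Orm2 read 10.42, 10.36 and 9.88. Under Dex Orm1 read 13.49, 13.43 and 13.41 at 2 h, 13.22, 13.28 and 12.89 at 24 h, and 12.39, 12.09 and 12.43 at 6 d. Under TNF it read 13.03, 12.74 and 12.84 at 2 h, 12.70, 12.80 and 12.66 at 24 h, and 12.33, 10.52 and 12.31 at 6 d. For Orm1 the Dex 2 h arrays lay above the control range and the Dex 6 d arrays below it, each by under 0.5.
Orm2 under Dex read 11.02, 10.79 and 10.84 at 2 h, 10.65, 10.61 and 10.51 at 24 h, and 9.62, 9.07 and 9.69 at 6 d. Under TNF it read 10.58, 9.99 and 10.42 at 2 h, 10.72, 10.67 and 11.01 at 24 h, and 9.53, 5.56 and 9.48 at 6 d. Both genes thus lay below the control range at 6 d under each agent, and Orm2 alone lay above it under TNF at 24 h. With no control kept for 6 d, an effect of the agents and one of time in culture cannot be told apart there.

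Both genes were called lower under TNF at 6 d, Orm1 by 1.17 ± 0.32 (adjusted p = 0.0198) and Orm2 by 2.03 ± 0.65 (adjusted p = 0.0439). TNF 6 d replicate 2 carried much of this: without it Orm1 fell by 0.57 ± 0.14 (1.48-fold, adjusted p = 0.00493) and Orm2 fell by 0.71 ± 0.19 (1.64-fold, adjusted p = 0.0106). The Orm1 call was not made without control replicate 1 (0.0711) or replicate 2 (0.0741). The Orm2 call was lost in 20 of the other settings, at adjusted p from 0.0514 upward; without control replicates 1, 2 and 3 in turn it was 0.113, 0.115 and 0.0783. Under Dex at 6 d the changes were -0.58 (adjusted p = 0.381) and -0.76 (adjusted p = 0.695), and at 2 h 0.56 (adjusted p = 0.873) and 0.67 (adjusted p = 1). Without TNF 6 d replicate 2 these were called, at 0.00127 and 0.00241 for 6 d and at 0.0051 and 0.0178 for 2 h, and so was the 0.58 change of Orm2 under TNF at 24 h (0.0164). From 24 h to 6 d of TNF Orm2 fell by 2.61 (adjusted p = 0.0239), or by 1.29 without that array (adjusted p = 0.000115), a call not made without TNF 24 h replicate 1, 2 or 3 (0.0634, 0.0583 and 0.0889).

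Itih4 encodes inter-alpha-trypsin inhibitor heavy chain 4, a plasma substrate of kallikrein, and Serpina3n encodes a serine protease inhibitor of the antichymotrypsin clade. Their time courses ran in different ways: Itih4 rose at 6 d under both agents, and Serpina3n rose at 2 h of Dex and from 24 h of TNF. The labels name no control kept for 6 d. For Itih4, an effect of the agents and one of time in culture therefore cannot be told apart.

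Itih4 read 8.03, 8.38 and 8.25 in controls. Dex arrays read 8.55, 8.44 and 8.11 at 2 h, 8.04, 8.23 and 7.69 at 24 h, and 11.25, 11.58 and 10.56 at 6 d. TNF arrays read 8.21, 8.40 and 7.94 at 2 h, 8.66, 8.83 and 8.45 at 24 h, and 10.18, 9.72 and 9.81 at 6 d. The 6 d arrays were above all others, and the Dex 6 d arrays were above the TNF 6 d arrays without overlap. Itih4 rose at 6 d by 2.91 ± 0.24 under Dex (7.51-fold, adjusted p = 1.25e-07) and by 1.69 under TNF (3.22-fold, adjusted p = 0.000178), a difference of 1.22 (adjusted p = 0.0012). At 2 h and 24 h the changes lay between -0.23 and 0.43 and none was called. From 24 h to 6 d Itih4 rose by 3.14 under Dex (adjusted p = 4.58e-07) and by 1.26 under TNF (adjusted p = 0.00332), and the difference between the agents changed by 1.88 ± 0.34 over this interval (adjusted p = 0.00381). At 24 h Dex minus TNF was -0.66 (adjusted p = 0.0795), which was called with the replicate number as a block (adjusted p = 0.0319) and without TNF 6 d replicate 2 (adjusted p = 0.0203).

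Serpina3n read 7.34, 7.70 and 7.57 in controls. Dex arrays read 9.35, 9.44 and 9.48 at 2 h, 8.63, 8.63 and 8.49 at 24 h, and 7.63, 7.36 and 7.73 at 6 d, the last overlapping the control range. TNF arrays read 8.21, 8.03 and 8.68 at 2 h, 9.21, 8.98 and 10.27 at 24 h, and 9.90, 8.50 and 10.69 at 6 d, all above the controls. The 2 courses thus crossed, with Dex above TNF at 2 h and below it at 6 d, and no overlap between the agents at either time. Dex raised Serpina3n by 1.88 ± 0.39 at 2 h (3.69-fold, adjusted p = 0.00887; 0.0558 without control replicate 1). Its later Dex changes were 1.05 at 24 h (adjusted p = 0.212; 0.00655 without TNF 6 d replicate 2) and 0.04 at 6 d (95% interval -0.79 to 0.86). TNF raised it by 1.95 at 24 h (3.85-fold, adjusted p = 0.00254) and by 2.16 at 6 d (4.48-fold, adjusted p = 0.00143; 2.76 and 6.77-fold without TNF 6 d replicate 2), while the 0.77 at 2 h was not called (adjusted p = 0.574).

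Dex minus TNF for Serpina3n was 1.12 at 2 h (adjusted p = 0.134), -0.90 at 24 h (adjusted p = 0.161) and -2.12 at 6 d (4.36-fold, adjusted p = 0.000764). Without TNF 6 d replicate 2 all 3 were called, at adjusted p of 0.00308, 0.00834 and 2.21e-07. The change of this difference from 2 h to 24 h was -2.02 ± 0.55 (adjusted p = 0.0442), and 0.000357 without that array. That call was not made without TNF 24 h replicate 3 (-1.63, adjusted p = 0.127) and in 15 other fits that left out 1 array.

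Cp encodes ceruloplasmin, the copper-carrying plasma ferroxidase that oxidises iron for loading onto transferrin. It rose with time of Dex and was raised by TNF from 2 h on. Controls read 11.29, 11.38 and 11.45. Dex arrays read 11.49, 11.30 and 11.55 at 2 h, 12.55, 12.57 and 12.71 at 24 h, and 13.16, 13.28 and 13.17 at 6 d. TNF arrays read 11.98, 12.23 and 12.01 at 2 h, 13.64, 13.56 and 13.40 at 24 h, and 13.34, 13.17 and 13.28 at 6 d. All groups but Dex 2 h lay above the controls, and at 6 d the 2 agents overlapped, the array that stood apart included. Cp rose by 1.24 ± 0.11 at 24 h (2.36-fold, adjusted p = 9.6e-07) and 1.83 at 6 d of Dex (3.55-fold, adjusted p = 3.72e-09). Under TNF it rose by 0.70 at 2 h (1.62-fold, adjusted p = 0.00056), 2.16 at 24 h (4.47-fold, adjusted p = 2.84e-10) and 1.89 at 6 d (3.71-fold, adjusted p = 5.77e-09).

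Dex minus TNF for Cp was -0.63 at 2 h (adjusted p = 0.00113) and -0.92 at 24 h (adjusted p = 1.01e-05). At 6 d the difference was -0.06 (95% interval -0.30 to 0.17, adjusted p = 0.68), and it had changed by 0.86 ± 0.16 since 24 h (adjusted p = 0.00594). Under Dex Cp rose by 1.16 from 2 h to 24 h (adjusted p = 4.65e-06) and by 0.59 from 24 h to 6 d (adjusted p = 0.0168). The latter was not called without Dex 24 h replicate 1 (0.113) or 2 (0.107) or Dex 6 d replicate 1 (0.0713), 2 (0.104) or 3 (0.0547), nor with median centring (0.072) or cyclic loess (0.145). Under TNF it rose by 1.46 from 2 h to 24 h (adjusted p = 1.52e-07), and the -0.27 that followed was not called (adjusted p = 0.142).

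The 8 probe sets of Cp gave like courses in most comparisons, with probe sets 1417497_at, 1441326_at and 1448735_at as exceptions. Calls also differed among the others. Dex minus TNF at 2 h was called for 1417495_x_at (adjusted p = 0.00406) and 1441326_at. It was not for 1417496_at (0.132), 1448734_at (0.278), 1455393_at (0.0665), 1417497_at or 1448735_at. The Dex rise from 24 h to 6 d was called for 1417495_x_at (0.0284) and 1455393_at (0.0266). It was not for 1417496_at (0.304), 1448734_at (0.314), 1441326_at, 1417497_at or 1448735_at. At 24 h of Dex 1417497_at (0.46, adjusted p = 0.763) and 1448735_at (0.98, adjusted p = 0.106) were not called. Both were called without TNF 6 d replicate 2 (0.0328 and 0.000927). At 6 d of TNF 1417497_at was not called (0.70, adjusted p = 0.117), and was without that array (5.29e-06). Dex minus TNF at 24 h was -0.07 and -0.41 for 1417497_at and 1448735_at, and neither was called (adjusted p = 0.952 and 0.52). Under Dex at 6 d all 8 rose, by 1.28 to 2.58 on the log2 scale. Under TNF at 24 h 7 of 8 were called higher, by 1.39 to 3.19, and the change of probe set 1417497_at was 0.53 (adjusted p = 0.407; 0.00774 without TNF 6 d replicate 2). At 2 h of TNF 4 of 8 were called: the probe set used above rose by 0.70, probe set 1441326_at rose by 2.94 (adjusted p = 3.76e-07) and probe set 1417497_at stood at -0.13 (adjusted p = 1). Probe set 1441326_at was the dimmest, with a control mean of 4.35 below the threshold, and 15 of its 21 arrays lay above it.

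**Figure D3:**
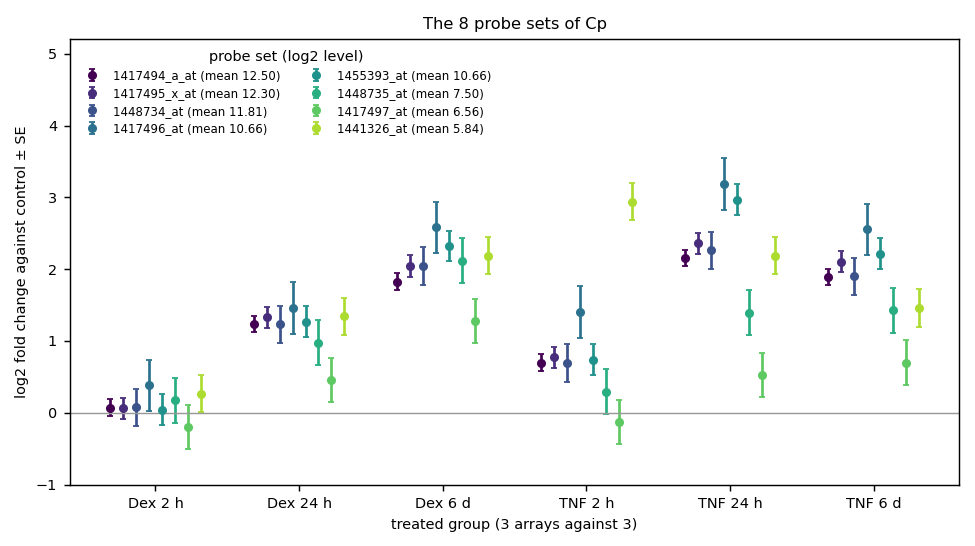
Change of each of the 8 probe sets of Cp against control (log2 fold change ± SE, vertical axis; 3 arrays against 3) in the 6 treated groups (horizontal axis), coloured by mean level over 21 arrays from dark (brightest probe set) to light (dimmest). At 2 h of TNF the dimmest probe set rises by 2.94, and the other 7 lie between -0.13 and 1.40.

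Set against each other at the same time, the agents differed for 4 genes at 2 h, where 5.97% of all genes were called in either direction: Saa3, Hpx and Cp were lower under Dex and Orm3 higher. At 24 h 5 genes differed (13.5%), with Hp added to those lower under Dex. At 6 d 6 genes differed (23.7%): Orm3 and Itih4 were higher under Dex, and Saa3, Hp, Hpx and Serpina3n lower. Saa3, Hpx and Orm3 differed at all 3 times, each in a constant direction. Without TNF 6 d replicate 2 the counts were 8 (14.8%), 8 (33.0%) and 7 (30.1%), with Lcn2 among the 7.

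**Figure D4:**
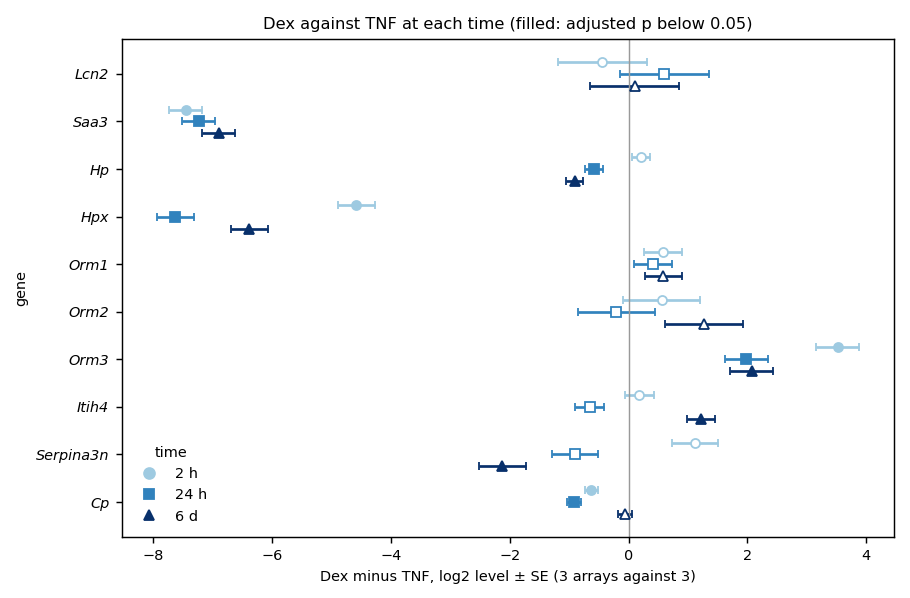
Dex minus TNF for each gene (difference of log2 levels ± SE, horizontal axis; 3 arrays against 3) at 2 h (circles), 24 h (squares) and 6 d (triangles), filled where the adjusted p in limma was below 0.05. Saa3 and Hpx lie far to the left, up to -7.63, Orm3 lies to the right at all 3 times, and Serpina3n crosses from right to left.

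Between neighbouring times, 3 genes differed from 2 h to 24 h of Dex, Lcn2, Hp and Cp, all higher, where 3.62% of all genes were called. From 24 h to 6 d of Dex 4 genes differed (0.683%): Itih4 and Cp rose, and Lcn2 and Hp fell. From 2 h to 24 h of TNF 4 genes rose, Lcn2, Hp, Hpx and Cp (5.69%). From 24 h to 6 d of TNF 6 genes differed (5.99%): Itih4 rose, and Lcn2, Hp, Hpx, Orm2 and Orm3 fell. Lcn2 and Hp thus had their highest mean of each course at 24 h, and Itih4 alone of the 10 rose from 24 h to 6 d under both agents. Not all of these falls held in other settings. The Hp fall under TNF was not called in 20 of them. The Lcn2 fall was not called in 5 under Dex and in 2 under TNF. Without TNF 6 d replicate 2 the 4 counts were 6 (13.5%), 8 (4.50%), 6 (22.1%) and 6 (9.20%). In fits of only the 2 groups compared, the members called with TNF at 6 d were 4 against control, 2 between the agents and 0 against TNF at 24 h by limma, where 6 had an unadjusted p below 0.05. The difference between the agents changed from 2 h to 24 h for 3 genes, Hp, Hpx and Serpina3n (4.51%; 5 genes and 18.2% without that array), and from 24 h to 6 d for 2, Itih4 and Cp (2.19%; 5 genes and 7.21%).

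Levels in order, from high to low, separate the genes by their leading groups. Lcn2 was highest at 24 h of Dex and TNF, whose ranges overlapped. Saa3, Hp, Hpx and Cp were highest at 24 h of TNF, in each case without overlap with the next group. Orm1 and Orm3 were highest at 2 h of Dex without overlap, and for Orm2 the Dex 2 h range overlapped that of TNF 24 h. Itih4 was highest at 6 d of Dex, followed by 6 d of TNF, both set apart. Serpina3n was highest in 3 groups that overlapped, TNF 6 d, TNF 24 h and Dex 2 h. Controls were the lowest group, apart from all others, for Hp, and for Lcn2 too if TNF 6 d replicate 2, at 4.57 below the controls, is set aside.

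Of 38 listed genes for other acute phase plasma proteins, 29 had a probe set of their own and 10 were bright enough to be tested. A gene could pass the filter through the 3 arrays of 1 group where it was high. The counts raised and the medians of this list therefore depend in part on the filter. For reading this and the next lists, Dex called 1.66%, 2.06% and 3.22% of all genes higher at the 3 times and 0.814%, 2.11% and 5.08% lower, and TNF 2.95%, 5.41% and 4.52% higher and 0.872%, 3.27% and 10.7% lower. Without TNF 6 d replicate 2 these shares were 4.29%, 6.39% and 10.4% higher and 2.83%, 6.79% and 13.5% lower for Dex, and 6.59%, 13.2% and 10.5% higher and 4.08%, 12.4% and 9.93% lower for TNF. TNF at 24 h raised 7 of these 10 (median change 1.66, all genes -0.03, and 5.41% of all genes called higher), and at 2 h and 6 d 1 and 2. Dex raised 0, 1 and 1 at the 3 times and lowered 1 at 6 d, with medians of 0.29, 0.08 and 0.02. When TNF 6 d replicate 2 was left out, TNF raised 2, 7 and 4 of the 10, and Dex raised 1 each time and lowered 0, 2 and 3. In limma, Lbp, which encodes the lipopolysaccharide binding protein, rose by 1.94 ± 0.45 at 24 h of Dex (adjusted p = 0.0171), by 4.18 at 24 h of TNF (adjusted p = 3.42e-06) and by 2.71 at 6 d of TNF (adjusted p = 0.000762; 3.52 without TNF 6 d replicate 2). At 24 h Dex minus TNF for Lbp was -2.24 (adjusted p = 0.00187). Ptx3, a long pentraxin, rose by 3.53 ± 0.55 at 2 h of TNF (adjusted p = 0.000376) and by 3.24 at 24 h (adjusted p = 0.000545). Lrg1, a leucine-rich glycoprotein, rose by 2.08 ± 0.43 at 24 h of TNF (adjusted p = 0.00311) and fell by 2.63 at 6 d of Dex (adjusted p = 0.000411). Fgl1, fibrinogen-like 1, rose by 1.46 ± 0.36 at 6 d of Dex (adjusted p = 0.0141), by 1.21 at 24 h of TNF (adjusted p = 0.0417) and by 1.55 at 6 d of TNF (adjusted p = 0.00806), from a control mean of 5.09 below the threshold. Of negative acute phase proteins, whose plasma level drops in inflammation, 4 of 10 were tested. The only calls against control over the 21 arrays were for Igfals, a carrier of insulin-like growth factors, which fell by 1.19 ± 0.27 at 24 h of Dex (adjusted p = 0.0126) and by 1.83 at 6 d (adjusted p = 0.000132).

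Of 26 listed genes of the cytokine and hormone signals that act on acute phase genes, 25 were tested. Dex raised 6, 4 and 4 of them at the 3 times and lowered 1, 0 and 0, while TNF raised 10, 15 and 6 and lowered 1 each time. The median change was 0.08, 0.11 and 0.33 under Dex and 0.81, 1.11 and 0.34 under TNF. The numbers raised were, without TNF 6 d replicate 2, 11, 7 and 13 under Dex (4.29%, 6.39% and 10.4% of all genes) and 17, 19 and 15 under TNF (6.59%, 13.2% and 10.5%). Il6 rose by 4.38 ± 0.53 at 2 h of TNF (adjusted p = 2.02e-05) and by 3.37 at 24 h (adjusted p = 0.000238) from a control mean of 4.96, below the threshold, and stayed below the threshold under Dex. Il6ra, its receptor, rose in all 6 comparisons, by 2.58 ± 0.22, 1.66 and 1.55 under Dex and by 1.10, 1.09 and 0.97 under TNF. Stat3 rose by 0.90 ± 0.17 (adjusted p = 0.00129) and Socs3, its feedback inhibitor, by 1.43 ± 0.36 (adjusted p = 0.0149) at 24 h of TNF.
Cebpd rose by 4.05 ± 0.48, 2.64 and 2.95 under Dex (adjusted p = 2.39e-05, 0.00216 and 0.000409), while its TNF changes of 0.74, 1.15 and -0.29 were not called; without TNF 6 d replicate 2 they were 0.74, 1.15 and 0.65 and were called. Cebpb was not called in any of the 6 comparisons, with changes from -0.37 to 0.55, though the change of 0.55 at 2 h of Dex and that of 0.32 at 2 h of TNF were called without that array. Nr3c1, the glucocorticoid receptor gene, was not called against control either, and its Dex changes of -0.99, -0.97 and -0.89 were called without that array. Nfkbiz, an NF-kB cofactor, rose by 1.85 ± 0.39 at 2 h of Dex (adjusted p = 0.0107) and by 2.96 at 2 h of TNF (adjusted p = 5.78e-05). Nfkbia, the NF-kB inhibitor, rose in all 6 comparisons, by 0.89 to 2.44, and so did Tnfrsf1b, a TNF receptor, by 0.68 to 2.41. Cebpa, a C/EBP factor of mature adipocytes, fell at 2 h of Dex, where its change was -1.16 ± 0.24 (adjusted p = 0.00921), and under TNF, where it was -1.04, -0.84 and -0.98.

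Of 26 listed receptors, partners and genes of iron or haem handling 22 were tested, and Dex raised 0, 1 and 2 and lowered 1, 2 and 2, while TNF raised 1, 5 and 3 and lowered 1 each time. In the fit without TNF 6 d replicate 2 Dex raised 1, 2 and 3 and lowered 1, 5 and 6, and TNF raised 2, 8 and 6 and lowered 2, 4 and 0. The median change of this list lay between -0.24 and 0.10 in the 6 comparisons. With 22 genes, counts of 0 to 2 are near the shares of all genes called in the same direction (3.22% higher at 6 d of Dex, for example). Slc40a1, the iron exporter ferroportin that works with ferroxidases such as ceruloplasmin, fell at 5 of the 6 points: its change was -1.68 ± 0.19, -1.61 and -2.11 under Dex and -2.02 and -1.53 at 2 h and 24 h of TNF, with adjusted p of at most 1.96e-05. At 6 d of TNF its change was 0.15 (adjusted p = 0.557). So at 24 h of both agents Cp was higher and Slc40a1 lower than in controls. Steap2, a metalloreductase, rose by 1.30 ± 0.30 and 1.87 at 24 h and 6 d of Dex and by 1.99 and 1.38 at these times of TNF. Mmp9, a secreted gelatinase found bound to lipocalin 2 in human neutrophils, rose by 1.40 ± 0.30 at 24 h and 1.75 at 6 d of TNF (adjusted p = 0.00465 and 0.000915). Its Dex changes lay between -0.22 and -0.02. Tlr2, an innate receptor for which serum amyloid A has been described as a ligand, rose by 5.71 ± 0.27, 4.96 and 3.57 under TNF. Its Dex changes of -0.37, -0.91 and -0.37 were not called, and the one at 24 h was called without TNF 6 d replicate 2 (adjusted p = 0.000307).

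The genes whose levels ran most like each member over the 21 arrays were found by Pearson correlation among 3687 tested genes whose group means spanned at least 1 on the log2 scale. The points share libraries and groups, so r is a description. Hpx ran closest to Ccl5 (r = 0.991), a chemokine, and Cfb (0.972), complement factor B, and Saa3 to Nfkbie (0.975), an NF-kB inhibitor, and Csf1 (0.972), a growth factor for macrophages. Itih4 ran closest to Aqp1 (0.947), a water channel, Orm3 to Ankrd9 (0.931), Cp to Synm (0.914), Serpina3n to Fst (0.913), the activin antagonist follistatin, Lcn2 to Pid1 (0.836) and Hp to Gdpd1 (0.829). For Orm1 and Orm2 the leading genes were Fcor (0.957) and Alg14 (0.974), and these values rested in part on TNF 6 d replicate 2, being 0.883 and 0.880 over the other 20 arrays. Among the members themselves Saa3 and Hpx had r = 0.97 over 21 arrays and over the 20, and Orm1 and Orm2 had r = 0.94, or 0.84 over the 20.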

How the data were processed

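Measured were 21 Affymetrix arrays, 3 for each of 7 groups. The deposited values were log2 RMA levels made by the authors, per the submitters' processing notes, version not given in the sources used here; the highest value was 15.06. Of 45101 probe sets, 34958 had 1 gene symbol in the platform annotation, 932 several and 9211 none, and 34754 symbols were updated through RefSeq gene tables (204 kept as given), leaving 18194 genes. Genes above 5.34, the median of all values, on at least 3 arrays were tested, 12156 in all. One fit of group means over the 21 arrays in limma 3.58.1 (R 4.3.3, empirical Bayes with a mean trend, 14 residual degrees of freedom) gave 13 comparisons and 2 interactions added after the data were seen. P-values were adjusted by Benjamini-Hochberg over all genes tested, and calls were made below 0.05. An exact permutation test of 3 arrays against 3 cannot go below 0.1, so none is given. Arrays have no read depth, and their number limits the precision.

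On simulated data made for TNF 24 h against control over 12156 genes, 16%, 48%, 88% and 98% of 50 genes changed by 0.5, 1, 2 and 4 on the log2 scale were recovered, and 5.30% of 132 calls were false. The simulated noise was independent, with 1 spread per gene for all arrays. It held no outlying array and no shared deviation of same-numbered arrays, so these rates need not hold for the real calls. Same-numbered arrays deviated together, every correlation above 0.1, in 2 of 13 comparisons, both at 24 h. The correlations were 0.233 to 0.447 between the Dex and control arrays and 0.207 to 0.270 between the Dex and TNF arrays. Where the block changed a call there, it is given beside the result. Alternatives were the filter, the probe set, the scaling, the moderation, the groups in the fit, the replicate block, array weights and each array left out. The 10 members, the 4 gene lists and the markers were chosen with earlier results of these data known, and no pattern in them is independent support. All members are named, with up to 4 genes of each list called in the most comparisons against control, 7 signalling genes chosen by name (Il6, Stat3, Socs3, Cebpb, Cebpd, Nr3c1 and Nfkbiz), and the genes correlated best with each member. Listed genes with no match are not analysed here. Promoter letters were aligned with Biopython 1.88.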

Additional observations from a re-analysis of the deposited data

Results flagged for a closer look

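For 5 genes the difference between the agents itself changed between neighbouring times, in limma's interaction test over all genes. Hpx had the largest such change: Dex minus TNF moved by -3.04 ± 0.44 from 2 h to 24 h (adjusted p = 0.000205; 7.9e-08 without TNF 6 d replicate 2). Hpx rose further under TNF over this interval, and its Dex arrays lay within the control range. Hp moved the same way by -0.78 ± 0.21 (adjusted p = 0.0363; 3.27e-06 without TNF 6 d replicate 2), and this call was not made without any 1 of the 12 Dex and TNF arrays of 2 h and 24 h (0.056 to 0.102), without Dex 6 d replicate 1 (0.0506), without the filter (0.0576) or without the trend (0.0573). Dex minus TNF for Serpina3n was 1.12 at 2 h and -0.90 at 24 h. Neither value was called over all arrays, and both were called without TNF 6 d replicate 2. Serpina3n moved by -2.02 ± 0.55 between these times (adjusted p = 0.0442). Its call was not made without any 1 of the control, Dex 2 h, Dex 24 h or Dex 6 d arrays, of TNF 24 h replicates 1 and 3 or of TNF 2 h replicates 1 and 2 (0.0549 to 0.127).

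From 24 h to 6 d, Dex minus TNF moved by 1.88 ± 0.34 for Itih4 (adjusted p = 0.00381; 0.0704 with only the groups compared), whose level rose under both agents and by more under Dex. For Cp it moved by 0.86 ± 0.16 (adjusted p = 0.00594). Cp rose under Dex over this interval, and its TNF change of -0.27 was not called. The Cp value was 0.53 with median centring (adjusted p = 0.273), 0.52 with cyclic loess (0.324), and 0.86 with only the groups compared (0.0524).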

How the results depend on the processing

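Over the 21 fits that each left out 1 array, members called ranged from 2 to 6 for Dex 2 h, 4 to 6 for Dex 24 h, 3 to 8 for Dex 6 d, 4 to 5 for TNF 2 h, 6 to 7 for TNF 24 h and 6 to 9 for TNF 6 d, all against control. They ranged from 4 to 8, 5 to 8 and 6 to 8 for Dex against TNF at 2 h, 24 h and 6 d, from 3 to 6 for Dex 24 h against 2 h, 2 to 8 for Dex 6 d against 24 h, 3 to 6 for TNF 24 h against 2 h and 1 to 8 for TNF 6 d against 24 h. Median centring gave 6 members for Dex 6 d against control and 5 for Dex 24 h against 2 h, and cyclic loess 7 and 5. With only the groups compared the counts were 6 for Dex 2 h, 8 for Dex 6 d and 4 for TNF 6 d against control, 7 and 2 for Dex against TNF at 2 h and 6 d, 8 for Dex 24 h against 2 h, 8 for Dex 6 d against 24 h, and by limma 0 for TNF 6 d against 24 h, where 6 had an unadjusted p below 0.05. Array weights gave 6, 8 and 8 for Dex against control, 10 and 9 for Dex against TNF at 2 h and 24 h, 8 for both Dex intervals and 9 for TNF 24 h against 2 h. The replicate block without TNF 6 d replicate 2 gave 6 for Dex 2 h and 8 for Dex 6 d against control, 8 and 8 for Dex against TNF at 2 h and 24 h, 6 and 8 for the Dex intervals and 8 for TNF 24 h against 2 h. With the replicate block alone, 2 of 130 member calls changed: Lcn2 at TNF 6 d against control was then called (adjusted p = 0.0444), and Itih4 between the agents at 24 h (0.0319); it changed no other call. Directions turned for Lcn2 between the agents at 6 d, from 0.10 to -1.02 with array weights, -1.06 with the block and without TNF 6 d replicate 2, and -1.27 without that array, up to 0.90 without replicate 3. With array weights the 6 d against 24 h interaction turned to -0.44 for Orm1 and -0.53 for Orm3. With probe set 1417497_at Cp read -0.13 at TNF 2 h, and with 1441326_at 0.73 between the agents at 6 d, -0.75 for TNF 24 h against 2 h and 1.83 for the 24 h against 2 h interaction. Of 130 member results, 130 kept their side of the threshold with the stricter filter and with robust moderation, 128 without the filter and 129 without the trend. Over all genes, the number called moved by over 1.5 times in 5 of 13 comparisons with median centring, 7 with loess, 13 with only the groups compared (0.00275 to 7.18 times), 13 with array weights (2.23 to 46.7 times) and 11 without TNF 6 d replicate 2 (1.27 to 6.59 times). The share of calls that were higher was 29.7% for TNF 6 d against control, 50.3% with median centring and 54.2% with loess. It was 20.2%, 51.8% and 39.7% for TNF 6 d against 24 h and 67.1%, 50% and 44.2% for Dex against TNF at 6 d, and for TNF 24 h against control 62.3% and 47% with centring. The causes were not tested.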
